A study of Mus musculus with 6 samples.

Results

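The 10 genes described here, Myb, Sox4, Satb1, Cd34, Cd93, Erg, Hlf, Lmo2, Mef2c and Trib2, mark or maintain blood stem and progenitor cells and were picked by name from the 23337 genes of the count table. All 10 were found, and all 10 had enough counts to be among the 11283 genes tested. The cells were granulocyte-monocyte progenitors from the bone marrow of C57BL6 mice, bipotent precursors of neutrophils and monocytes, and every culture carried ER-HOXA9. This is HOXA9, a homeobox transcription factor, joined to an estrogen receptor part, and it holds myeloid progenitors in an immature, dividing state while its ligand is present. All 6 cultures, the controls included, grew with stem cell factor and 0.5 µM beta-estradiol. Untreated cells were taken at day 0. The vehicle cells were kept for 3 days with the solvent DMSO. The drug cells were kept for 3 days with 200 nM GSK-LSD1, 5 µM mercaptopurine and 5 µM cerulenin together. GSK-LSD1 inhibits the histone demethylase LSD1, mercaptopurine is a purine antimetabolite and cerulenin inhibits fatty acid synthase. No library had 1 of these drugs alone, so their parts cannot be told apart. Each group had 2 biological replicates. The labels do not say whether the replicates came from separate mice or cultures, or whether the cells are 1 clone, so the p-values measure only the spread between these libraries.

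Stem and progenitor identity rests on a small network of transcription factors and on surface proteins by which such cells are sorted. In normal myelopoiesis most of these genes are switched down as neutrophils and monocytes mature. LSD1 removes methyl groups from histone H3 and is brought to its targets by repressors such as GFI1 and GFI1B, and inhibitors of it release myeloid differentiation genes in leukaemia cells. Myb is a known effector of HOXA9 in leukaemia.

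Total counts ran from 11305666 to 16948697 per library, and the 10 genes together took between 0.355% and 0.421% of them. Levels are normalised read counts in CPM, counts scaled to a common library size by TMM, and RPKM, the same value per kilobase of exon, is used where genes are set beside one another. Rn45s, the ribosomal RNA precursor, took 20.45% and 24.64% of the counts at day 0 and between 14.62% and 16.12% in the other 4 libraries. The choice of scaling mattered most in the comparisons with day 0. TMM called 423 genes higher and 450 lower in vehicle against day 0, and library totals called 1741 and 216 and moved the median log2 change of all tested genes from -0.02 to 0.10. For the drugs against day 0 the split was 2564 and 2394 with TMM and 3141 and 1321 with library totals. Markers of the labelled cell type were present, with summed levels of 12 progenitor genes such as Mpo and Kit at 7711 to 8010 CPM at day 0, 8642 to 8896 CPM with vehicle and 10806 to 11354 CPM with the drugs. The largest part of that sum was Mpo, which averaged 4647 CPM in vehicle and 6735 CPM in drug cells. The sum also includes Cd34, itself 1 of the 10 genes. Csf1r, a receptor on the list, had only 23 and 16 counts at day 0 and 20 and 23 with vehicle, against 191 and 252 with the drugs. Against vehicle, 6 of the 12 were called higher with the drugs (Mpo, Kit, Fcgr3, Csf1r, Csf3r and Fcgr2b) and 2 lower, namely Cebpa and Ctsg (955.3 to 738.3 CPM, adjusted p = 0.0168). Of all tested genes, 18.1% were called higher and 13.8% lower in that comparison. Cd34, Cd93 and Erg are also expressed in endothelium. Of 9 endothelial markers, Cdh5, Kdr, Tek, Emcn and Sox17 had 0 counts in all 6 libraries, and Pecam1, which leukocytes express too, was the only one with enough counts to test. The 9 summed to 215.8 to 225.6 CPM at day 0, 170.5 to 175.2 CPM with vehicle and 240.6 to 241.5 CPM with the drugs, nearly all of it Pecam1.

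Satb1, Mef2c and Trib2 had the widest range of group means on the log2 scale among the 10 genes, so the DNA before their start sites is shown first. The windows below are the 250 bases before the start site that lies at the 5′ end of each gene in the deposited table, from RefSeq on GRCm38.p6, the assembly that mm10 represents. Capitals mark 11 short words that were searched on both strands. They were AACGG for MYB, AACTG also for MYB, AGATAA for GATA factors, GAGGAA for PU.1, CAGCTG as an E-box, CAGATG as a further E-box, TGATTTA for HOX with PBX or MEIS, AAATCA for GFI1, ACCGGAAG for ETS factors, CTATTTAT for MEF2 and TTACGTAA for HLF. Any match of TGATTTA also holds the GFI1 word on the other strand.
Satb1, chr17:51833291-51833540, minus strand: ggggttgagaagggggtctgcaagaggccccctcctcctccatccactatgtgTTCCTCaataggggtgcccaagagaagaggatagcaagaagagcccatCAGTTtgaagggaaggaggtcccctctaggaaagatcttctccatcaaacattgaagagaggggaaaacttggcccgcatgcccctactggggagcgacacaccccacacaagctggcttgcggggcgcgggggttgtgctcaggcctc
Mef2c, chr13:83503784-83504033, plus strand: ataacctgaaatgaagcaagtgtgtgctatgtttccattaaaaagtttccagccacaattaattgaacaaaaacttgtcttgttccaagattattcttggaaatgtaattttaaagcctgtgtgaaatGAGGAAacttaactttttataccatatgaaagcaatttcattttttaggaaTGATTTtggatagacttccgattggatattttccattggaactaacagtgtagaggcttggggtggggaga
Trib2, chr12:15816786-15817035, minus strand: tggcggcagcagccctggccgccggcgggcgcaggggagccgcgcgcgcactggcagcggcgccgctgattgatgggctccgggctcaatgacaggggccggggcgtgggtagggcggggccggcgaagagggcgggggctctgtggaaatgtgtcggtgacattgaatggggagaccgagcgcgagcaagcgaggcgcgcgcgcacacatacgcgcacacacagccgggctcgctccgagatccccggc
The Satb1 window held the PU.1 word and a MYB word, both on the opposite strand, starting 197 and 149 bases before the start site. The Mef2c window held the PU.1 word at 122 bases and the GFI1 word, on the opposite strand, at 71 bases before the start. The Trib2 window held none of the 11 words and was 73.6% G and C, against 33.6% for Mef2c, 58% for Satb1 and a median of 52.4% over all 32841 promoter windows. RefSeq windows were matched for 8 of the 10 genes, with 16 start sites in all, 5 of them of Satb1 and 3 each of Mef2c and Erg, so the windows are not independent. A pair of Satb1 windows overlap and hold the same AACGG match, 1 PU.1 match and 1 GFI1 match, which are counted in both. Over those 16 windows the PU.1 word was in 6 (Mef2c, Satb1 and Sox4), against 23.3% of all windows. The GFI1 word was in 5 (Cd34, Mef2c and Satb1), against 12.4%. The E-box CAGCTG was in 2 (Satb1 and Sox4), against 13%, and CAGATG in 1 (Mef2c), against 14.4%. The MYB word AACGG was in 3 windows (Erg and Satb1), against 14.5%, the other MYB word, AACTG, in 2 (Erg and Satb1), against 39.1%, and the GATA word was in 1 (Erg), against 10%. The words for HOX, ETS, MEF2 and HLF were in 0 of the 16 windows and in 2.6%, 1.7%, 1% and 0.1% of all windows. A match is a run of letters and not a shown binding site.

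Per kilobase, the 10 genes spanned a wide range. Cd34 and Myb were the highest in each group, and Mef2c was the lowest. Cd34 stood at 532.5 ± 10.2 RPKM (SD, n = 2) at day 0, 510.9 ± 13.6 RPKM with vehicle and 558 ± 12.4 RPKM in drug cells, and its mean RPKM was above that of at least 99.3% of tested genes in each group. Myb followed with 284.8 ± 0.962, 310.4 ± 10.7 and 315.8 ± 4.75 RPKM. Hlf and Lmo2 came next in each group, at 105.2 ± 8.95 and 80 ± 1.1 RPKM at day 0. Cd93, Sox4, Erg and Trib2 lay between 28.8 and 44.4 RPKM at day 0. Satb1 was at 4.79 ± 0.215 RPKM at day 0, and Mef2c at 0.343 ± 0.108. Most neighbours in this order were separated by more than the range of their replicates. The exceptions were Erg and Trib2 at day 0, Sox4 and Cd93 with vehicle, and Erg and Sox4 with the drugs, whose ranges overlapped. In these bulk samples, fewer cells that express a gene and less RNA of it per cell cannot be told apart.

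**Figure D1:**
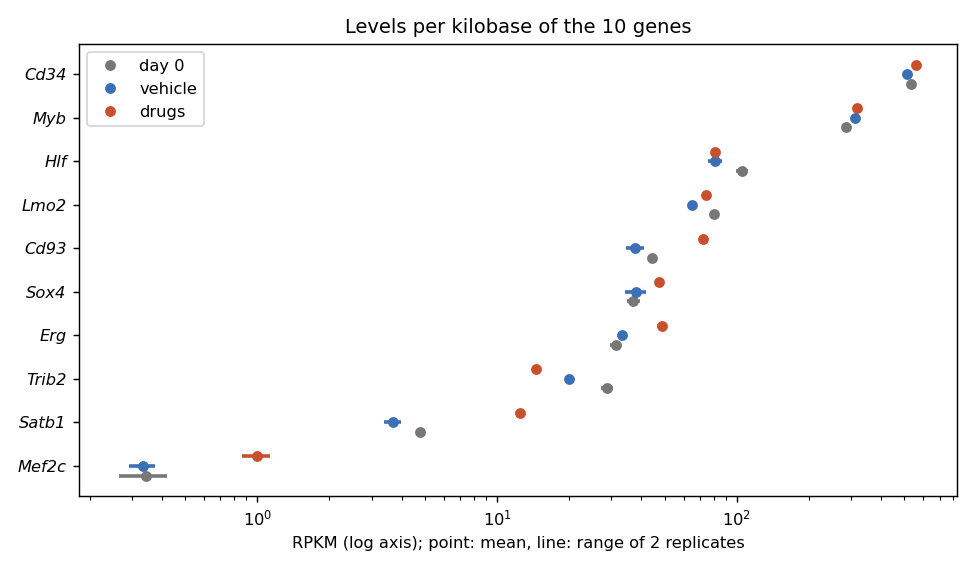
RPKM of the 10 genes on a log axis, with the mean (point) and the range of the 2 replicates (line) for day 0, vehicle and drug cells. Cd34 averages 510.9 to 558 RPKM over the groups, and Mef2c at or under 1.13 RPKM in each library.

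The drugs were first set against vehicle on the same day, which asks what the combination did to these progenitors. Satb1, Mef2c, Cd93, Erg, Sox4 and Lmo2 rose with the drugs, Trib2 fell, and Myb, Cd34 and Hlf did not pass the test. The rises ran from 1.14-fold for Lmo2 to 3.38-fold for Satb1. So 6 of the 10 genes were called higher and 1 lower at an adjusted p under 0.05, where 18.1% of all tested genes were called higher and 13.8% lower (31.9% in either direction). The median log2 change of the 10 was 0.26, beside 0.00080 over all tested genes. Replicates of the 2 groups did not overlap for 8 of the 10, and for 68.8% of all tested genes.

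Among the transcription factors of the stem cell network, Myb is needed for definitive blood formation and keeps progenitors dividing. It had 1073 and 1078 CPM at day 0, 1144 and 1201 CPM in vehicle cells, and 1180 and 1205 CPM in drug cells. The drug and vehicle libraries overlapped, and all 4 lay above both day 0 libraries. The drug to vehicle ratio was 1.02-fold with a 95% interval of 0.904 to 1.15 (adjusted p = 0.842), and against day 0 neither vehicle (log2 change 0.12 ± 0.0788 SE, adjusted p = 0.343) nor the drugs (0.15 ± 0.0787, adjusted p = 0.142) passed the test. With library totals the last 2 differences were larger and passed it (0.25, adjusted p = 0.0368, and 0.24, adjusted p = 0.0204). 

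Erg, an ETS factor that maintains stem cells, had 65.3 and 72.9 CPM at day 0, 72.3 and 74.4 CPM with vehicle and 102.8 and 112.4 CPM with the drugs. Both drug libraries were above the other 4, while the day 0 and vehicle libraries overlapped. Erg rose by 0.55 ± 0.077 on the log2 scale against vehicle (1.47-fold, 95% interval 1.31 to 1.65, adjusted p = 0.000133) and by 0.64 ± 0.0767 against day 0 (adjusted p = 2.78e-05). Vehicle against day 0 gave 0.09 ± 0.0788 (adjusted p = 0.498).

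Lmo2, a LIM-domain adaptor that joins TAL1 or LYL1 to GATA factors through LDB1, had 153.5 and 150.5 CPM at day 0, 121.9 and 125.6 CPM with vehicle and 141.9 and 141.5 CPM with the drugs. The groups did not overlap, with day 0 highest and vehicle lowest. Lmo2 fell by 0.30 ± 0.0656 in vehicle against day 0 (adjusted p = 0.016), rose by 0.20 ± 0.0657 in drugs against vehicle (adjusted p = 0.0376), and in drugs against day 0 changed by -0.10 ± 0.0649, which did not pass (adjusted p = 0.223; the ratio's 95% interval was 0.846 to 1.03). Both calls were thin. The rise was lost without vehicle replicate 1 (adjusted p = 0.162) or 2 (0.0929) and without drug replicate 1 (0.226) or 2 (0.204), and with DESeq2 (0.13), library totals (0.0944) or no filter (0.0702). The fall was lost without day 0 replicate 1 (0.0636), vehicle replicate 1 (0.111) or either drug replicate (0.0638 and 0.0551), and with library totals (0.103) or only the 2 groups (0.0687).

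Hlf, a PAR-type basic leucine zipper factor that marks stem cells, had 560.3 and 632 CPM at day 0, 490.9 and 428.1 CPM with vehicle and 471.9 and 450.8 CPM with the drugs. Both 3-day groups were below day 0 and overlapped each other. Its fitted level was 0.382% higher with the drugs than with vehicle (95% interval of the ratio 0.878 to 1.15, adjusted p = 0.968), while it fell by 0.38 ± 0.0895 in vehicle (adjusted p = 0.0234) and by 0.37 ± 0.0894 in drugs (adjusted p = 0.0051), each against day 0. The fall with vehicle was lost without vehicle replicate 2 (adjusted p = 0.13) or drug replicate 1 (0.0704) or 2 (0.0606) and with only the 2 groups in the fit (0.0741), and the fall with the drugs without drug replicate 2 (0.0663).

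Satb1, a chromatin organiser that folds loci around AT-rich anchors and is best known from lymphoid cells and stem cell self-renewal, had the largest change of the 10 between drugs and vehicle. Its counts were 561 and 379 at day 0, 340 and 275 in vehicle cells and 1034 and 1328 in drug cells, or 33.6 and 31.5, 26.9 and 23, and 82.8 and 85.7 CPM. The groups did not overlap, and the drug libraries stood far above the others. Satb1 rose by 1.76 ± 0.0892 against vehicle (3.38-fold, 95% interval 2.95 to 3.86, adjusted p = 1.3e-08) and by 1.37 ± 0.0851 against day 0 (adjusted p = 6.97e-08). It ranked 323 of the 11283 tested genes by the size of its change between drugs and vehicle. Its fall of 0.38 ± 0.0953 in vehicle against day 0 (adjusted p = 0.0284) was lost without day 0 replicate 1 (adjusted p = 0.156), vehicle replicate 2 (0.137) or either drug replicate (0.067 and 0.0629). It was also lost with DESeq2 (0.0877), library totals (0.1) or only the 2 groups (0.0869).

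Mef2c, a MADS-box factor that favours lymphoid and monocyte fates, had few reads. It had 46 and 21 counts at day 0, 31 and 23 in vehicle cells and 71 and 115 in drug cells, or 2.75 and 1.75, 2.45 and 1.92, and 5.69 and 7.42 CPM. Both drug libraries were above the other 4, which overlapped. Mef2c rose by 1.59 ± 0.252 against vehicle (3.01-fold, 95% interval 2.06 to 4.39, adjusted p = 0.000389) and by 1.51 ± 0.24 against day 0 (adjusted p = 0.000297). Even so, with the drugs its mean of 0.998 RPKM was above that of only 8.5% of tested genes. Vehicle differed from day 0 by -0.08 ± 0.304 (adjusted p = 0.898).

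Sox4, an HMG-box factor of progenitors that is often raised in leukaemia, had 102.5 and 116.3 CPM at day 0, 123 and 101.2 CPM with vehicle and 143.1 and 136.7 CPM with the drugs. Both drug libraries were above the other 4. Sox4 rose by 0.32 ± 0.0928 against vehicle (adjusted p = 0.0197) and by 0.36 ± 0.0924 against day 0 (adjusted p = 0.00769). The first call was lost without vehicle replicate 2, where the log2 change was 0.17 (adjusted p = 0.198), and without drug replicate 1 (0.148) or 2 (0.0678), and the second without day 0 replicate 1 (0.0552) or drug replicate 1 (0.0744). Vehicle against day 0 gave 0.04 ± 0.0936 (adjusted p = 0.831).

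**Figure D2:**
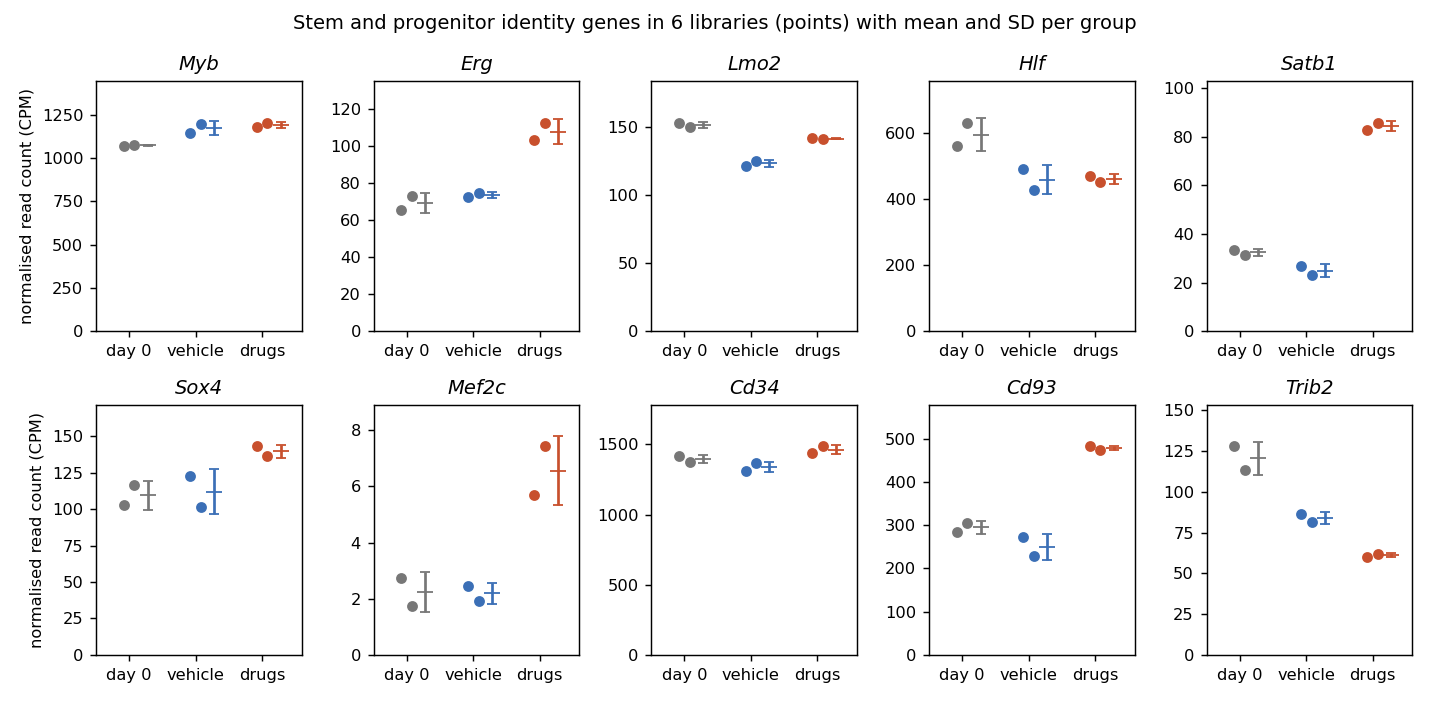
Normalised read counts in CPM of each gene in the 6 libraries (points, 2 per group), with the group mean and SD beside them, each gene on its own axis from 0. Satb1, Cd93, Erg, Sox4 and Mef2c are highest in the drug libraries, and so is Cd34 by a small margin that did not pass the test. Trib2 steps down from day 0 to vehicle to drugs, and Hlf is lower in both 3-day groups.

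The surface proteins differed from each other. Cd34, the sialomucin by which stem and progenitor cells are commonly sorted, had 1414 and 1377 CPM at day 0, 1314 and 1364 CPM with vehicle and 1440 and 1486 CPM with the drugs. Both drug libraries were above both vehicle libraries, and no comparison passed the test. The drug to vehicle ratio was 1.09-fold with a 95% interval of 0.968 to 1.23 (adjusted p = 0.254), and the drug to day 0 ratio was 1.05-fold (0.928 to 1.18, adjusted p = 0.521). An exon of Cd34 overlaps Gm16897 on the opposite strand, and that gene had at most 3 counts in any library.

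Cd93, a C-type lectin-like membrane receptor of early progenitors, monocytes and endothelium, had 283.8 and 305.9 CPM at day 0, 271.7 and 229 CPM with vehicle and 482.2 and 474.6 CPM with the drugs. Both drug libraries were above the rest, and day 0 lay above vehicle. Cd93 rose by 0.93 ± 0.088 against vehicle (1.91-fold, 95% interval 1.67 to 2.18, adjusted p = 4.29e-06) and by 0.70 ± 0.0873 against day 0 (adjusted p = 4.16e-05). Vehicle against day 0 gave -0.24 ± 0.088 and did not pass after adjustment (adjusted p = 0.123).

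Trib2, a pseudokinase that with the ubiquitin ligase COP1 directs the breakdown of C/EBPα and can block myeloid maturation, was the member that fell with the drugs. It had 127.9 and 113.6 CPM at day 0, 86.6 and 81.3 CPM with vehicle and 60.3 and 62.2 CPM with the drugs. The groups did not overlap and stepped down from day 0 to vehicle to drugs. Trib2 fell by 0.45 ± 0.0786 in drugs against vehicle (adjusted p = 0.000779), by 0.53 ± 0.0756 in vehicle against day 0 (adjusted p = 0.00131) and by 0.98 ± 0.0768 in drugs against day 0 (adjusted p = 6.38e-07). The level with the drugs was 0.507-fold that at day 0 (95% interval 0.452 to 0.569).

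The second comparison, vehicle against day 0, asks what 3 days of culture with DMSO did without the drugs. No untreated cells were sampled at day 3, so time and solvent cannot be told apart. Trib2, Satb1, Hlf and Lmo2 fell, and 0 of the 10 genes were called higher by the main edgeR fit or by DESeq2. In the main fit 0 of them rose at an unadjusted p under 0.05 either. With library totals edgeR called Myb higher (0.25, adjusted p = 0.0368). The 4 of 10 calls of the main fit stand beside 7.74% of tested genes called in either direction, 3.75% higher and 3.99% lower. Replicates did not overlap for 7 of the 10 and for 50.8% of tested genes. The median log2 change of the 10 was -0.16, beside -0.02 over all tested genes. The main fit assumed that all 3 groups share the same spread, while the raw counts of their replicates differed by unlike amounts. Chi-square per degree of freedom was 14.73 between the day 0 replicates, 5.99 between the vehicle replicates and 1.89 between the drug replicates. It was taken from raw counts scaled by library totals, with Rn45s included, and it grows with depth. It is therefore not the spread on the TMM scale of the main fit. In a fit of only vehicle and day 0 by group alone, Trib2 alone stayed called, and the calls of Satb1, Hlf and Lmo2 were lost. A block fit of these 2 groups with crossed replicate numbers, chosen after seeing the data, did call Satb1, Hlf and Lmo2 lower. Their calls thus depend on how the spread is modelled. The count of calls also depended on single libraries. It was 2 without day 0 replicate 1 and 2 without vehicle replicate 2, and it was 1, Trib2, without drug replicate 1 and 1 without drug replicate 2, since the spread is estimated over all 3 groups.

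The third comparison set the drug cells against the starting cells. It shares its drug libraries with the first comparison and its day 0 libraries with the second, so the 3 sets of values are not independent. Satb1, Mef2c, Cd93, Erg and Sox4 rose, Trib2 and Hlf fell, and Myb, Cd34 and Lmo2 did not pass. That made 5 of 10 called higher and 2 lower, where 22.7% and 21.2% of tested genes were called (43.9% in either direction). Replicates of the groups were separate for each of the 10, and for 73.2% of tested genes. The median log2 change of the 10 was 0.25, beside -0.01 over all tested genes. Read across the comparisons, Cd93, Erg, Sox4 and Mef2c were called higher with the drugs against both references and not called between vehicle and day 0. Satb1 was called lower with vehicle and higher with the drugs, Trib2 was called lower in each comparison, and Hlf was called lower in both 3-day groups.

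**Figure D3:**
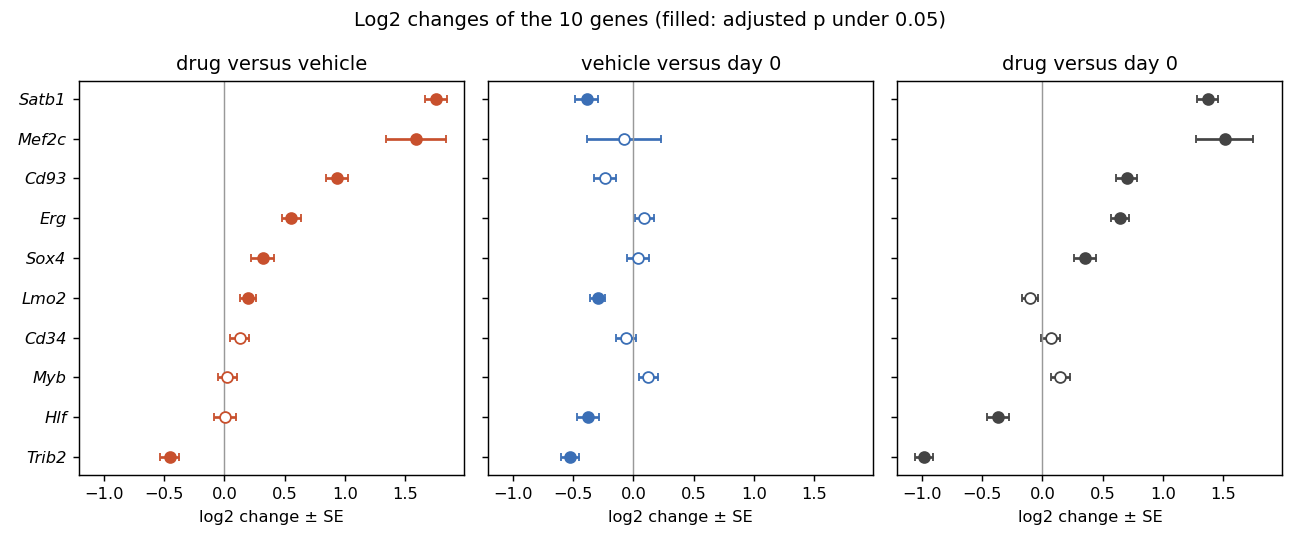
Log2 change ± SE of the 10 genes in the 3 comparisons, ordered by drugs against vehicle, with filled points for an adjusted p under 0.05. Satb1 and Mef2c lie at 1.76 and 1.59 in the first panel, and Trib2 lies below 0 in each panel.

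Genes that work with the members were then counted, starting with the partners of LMO2. Of 13 partners in the LMO2 complex and its close network, 12 were tested, and 2 rose and 1 fell with the drugs against vehicle (median log2 change -0.05, beside 0.00080 for all tested genes). These counts and those of the lists that follow stand beside the 18.1% higher and 13.8% lower of all tested genes in this comparison, 3.75% and 3.99% in vehicle against day 0, and 22.7% and 21.2% in drugs against day 0. Tal1, the helix-loop-helix factor that LMO2 binds, fell from 65.3 ± 2.06 to 40 ± 0.219 CPM (log2 change -0.71 ± 0.0835, adjusted p = 3.17e-05). Gata2, the GATA factor of stem cells, rose from 62.1 ± 0.335 to 88.4 ± 1.17 CPM (0.51 ± 0.0674, adjusted p = 8.71e-05). The other rise was Runx1, the core binding factor subunit mutated in leukaemia, which rose by 0.50 ± 0.0843 and stood at 42.6 ± 3.22 CPM at day 0, 56.3 ± 5.35 CPM in vehicle cells and 79.8 ± 1.62 CPM in drug cells. Lyl1, which can stand in for TAL1, had 104.3 CPM with vehicle and 94 CPM with the drugs and did not pass (-0.15 ± 0.0817, adjusted p = 0.189). Nor did the bridging protein Ldb1 (-0.06 ± 0.0653, adjusted p = 0.546). In vehicle against day 0, 2 of the 12 passed the test, both higher. They were Runx1 (0.41 ± 0.0882, adjusted p = 0.0149) and Cbfa2t3 (0.41 ± 0.0808, adjusted p = 0.00892), an ETO-family corepressor. Both calls were lost without day 0 replicate 1 (adjusted p = 0.11 and 0.0697) or vehicle replicate 1 (0.133 and 0.0848). Against day 0, 3 rose and 3 fell with the drugs.

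Of 13 MYB relatives, cofactors and known targets, all were tested, and 5 rose and 1 fell with the drugs against vehicle (median 0.17). Crebbp, the CBP acetyltransferase to which MYB binds, rose by 0.38 ± 0.069 (adjusted p = 0.00111). Gfi1, a transcriptional repressor that recruits LSD1 and is needed for neutrophil formation, rose from 264.8 ± 23.5 to 719.4 ± 12.4 CPM (1.44 ± 0.0819). Mpo, the myeloperoxidase gene of promyelocytes, rose by 0.54 ± 0.104 (adjusted p = 0.00179). The member that fell was Mybl2, the MYB relative of dividing cells (-0.44 ± 0.0831, adjusted p = 0.00137), named after its value was seen. Between vehicle and day 0, 2 of the 13 passed, both higher. These were Elane, the neutrophil elastase gene, which went from 10.3 ± 0.255 to 33.3 ± 9.02 CPM (1.69 ± 0.162, adjusted p = 6.28e-05), and Ms4a3, a membrane protein of these progenitors (0.59 ± 0.08, adjusted p = 0.000874). Against day 0, 8 rose and 2 fell with the drugs. Myb itself passed in none of the 3 comparisons.

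Around Trib2, the 6 genes of its family and of the COP1 and C/EBP axis split into 2 rises and 2 falls with the drugs against vehicle. Trib3, a pseudokinase of the stress response, fell from 9.59 ± 0.151 to 3.65 ± 0.505 CPM (-1.40 ± 0.26, adjusted p = 0.00126) after 28.4 ± 9.01 CPM at day 0. Trib1, the closest relative of Trib2 in function, stood at 11.8 ± 0.436 CPM at day 0, 6.61 ± 1.3 CPM in vehicle cells and 8.47 ± 0.48 CPM in drug cells. It fell in vehicle against day 0 (-0.84 ± 0.157, adjusted p = 0.00634), which no longer passed without vehicle replicate 1 (0.0757). Cebpa, which encodes the protein that TRIB2 targets, fell with the drugs from 177.3 ± 3.54 to 137 ± 0.526 CPM (-0.37 ± 0.0661, adjusted p = 0.000932). Cebpe, the C/EBP factor of later granulocytes, rose from 29.9 ± 0.152 to 69.3 ± 4.28 CPM (1.21 ± 0.0821, adjusted p = 2e-07). These are transcript levels, and C/EBPα protein was not measured here. In vehicle against day 0, 1 of the 6 rose and 2 fell, and with the drugs against day 0 2 rose and 4 fell.

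Relatives of the members did not always move with them. Of 23 relatives, 14 were tested, and 4 rose and 2 fell with the drugs against vehicle (median 0.25). Trib3 and Mybl2, which fell, and Trib1, Mybl1 and Fli1 were already counted in the lists above. Thbd, thrombomodulin, which shares its domain plan with CD93, rose from 25.5 ± 0.653 to 64.5 ± 1.21 CPM (1.34 ± 0.0808, adjusted p = 6.5e-08). Nfil3, a leucine zipper repressor that competes with PAR factors such as HLF for DNA, rose from 11.1 ± 1.23 to 23.1 ± 1.7 CPM (1.06 ± 0.123, adjusted p = 2.81e-05). The other rises were Lmo4 (0.66 ± 0.0879, adjusted p = 9.14e-05) and Mef2a (0.50 ± 0.109, adjusted p = 0.00385), relatives of Lmo2 and Mef2c. Fli1, the ETS factor most like ERG, had 79.3 CPM with vehicle and 77.2 CPM with the drugs (-0.04 ± 0.0721, adjusted p = 0.701). Lmo1 and Clec14a had 0 counts in all 6 libraries. Between vehicle and day 0, 2 of the 14 passed, both lower (Trib1 and Trib3), and in drugs against day 0 5 rose and 4 fell. All 4 class IIa deacetylases, which bind MEF2 proteins and hold them silent, were tested, and 2 rose with the drugs against vehicle. Hdac9 rose from 9.36 ± 0.831 to 43.4 ± 0.736 CPM (2.21 ± 0.13, adjusted p = 4.87e-08). The change of Hdac5 was 0.32 ± 0.0882 (adjusted p = 0.0153) and did not pass without vehicle replicate 2 (0.15) or either drug replicate (0.144 and 0.0616), or with DESeq2.

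**Figure D4:**
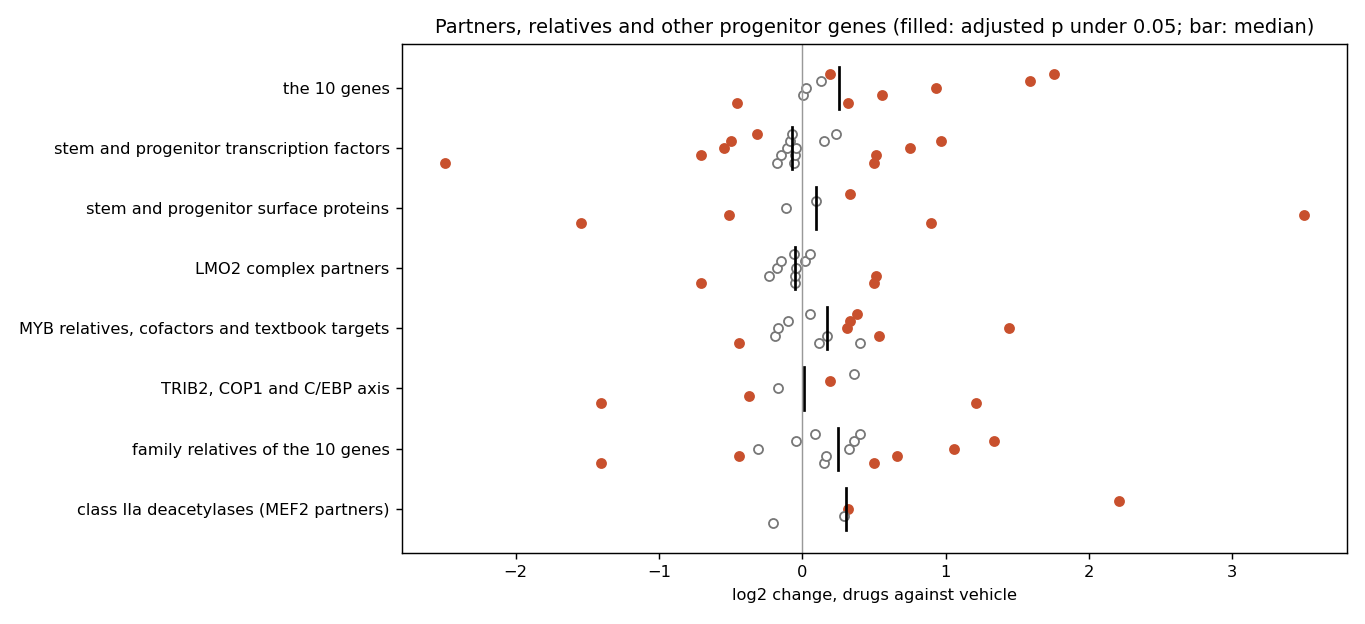
Log2 change in drugs against vehicle of each tested gene in the 10-gene set and 7 related lists, 1 row per list, with filled points for an adjusted p under 0.05 and a bar at the list's median. In 7 of the 8 rows called genes lie on both sides of 0, and in the deacetylase row both called genes lie above 0.

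Other stem and progenitor genes were mixed as well. Of 22 further transcription factors, 19 were tested, and 4 rose and 5 fell with the drugs against vehicle (median -0.08), and 4 rose and 8 fell against day 0 (median -0.12). Ikzf2, the zinc finger factor Helios, rose by 0.75 ± 0.0823 (adjusted p = 1.7e-05), and Tcf4, an E protein, rose from 21.1 ± 3.76 to 41.4 ± 0.0757 CPM (0.97 ± 0.142, adjusted p = 0.00021). Mycn, a MYC family factor, fell from 8.9 ± 0.164 to 1.58 ± 0.14 CPM (-2.49 ± 0.196, adjusted p = 8.17e-07). Of the long-term stem cell factors, Prdm16 had 0 counts in all 6 libraries and Mecom at most 1. In vehicle against day 0, 1 rose and 1 fell, the latter Meis1, the HOXA9 cofactor (-0.38 ± 0.0806, adjusted p = 0.0134), a call lost without day 0 replicate 1 (0.0621) or vehicle replicate 2 (0.0702), and with DESeq2 or library totals. Of 15 surface and secreted proteins, 7 were tested, and 3 rose and 2 fell with the drugs against vehicle (median 0.10). Kit, among these rises, was also counted with the MYB targets. Against day 0 all 7 were called, 3 higher and 4 lower (median -0.40), and in vehicle against day 0 1 rose and 1 fell (median -0.23). The latter was Itga2b, an integrin of stem cells and megakaryocytes, which fell from 32.6 ± 6.55 to 13.6 ± 2.38 CPM (-1.28 ± 0.167, adjusted p = 0.000727). Flt3, a receptor kinase of multipotent and lymphoid-primed progenitors, rose from 283 ± 0.534 to 526.8 ± 12.6 CPM (0.90 ± 0.0703, adjusted p = 8.17e-07), and had already risen in vehicle against day 0 (0.42 ± 0.0708, adjusted p = 0.00334). Procr, the protein C receptor used to sort stem cells, had 13 and 22 counts in vehicle cells and 203 and 251 in drug cells, a rise of 3.50 ± 0.209 (adjusted p = 5.75e-08). Cd27, a TNF receptor of multipotent progenitors, fell from 3.77 ± 0.483 to 1.28 ± 0.109 CPM (-1.55 ± 0.272, adjusted p = 0.000857). The stem cell marker Slamf1 had 0 counts in each library and Ly6a at most 2.

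Genes with the most similar pattern were found for Satb1, Mef2c and Trib2 by Pearson correlation of log2 CPM over the 6 libraries, which share groups, so this describes shape only. Closest to Satb1 were Ephb2, an ephrin receptor kinase (r = 0.999), and Cdkn1b, the p27 inhibitor of cyclin-dependent kinases (r = 0.998), which averaged 16.5, 14.1 and 25.9 CPM in day 0, vehicle and drug cells. Closest to Mef2c were Trim45 (r = 0.995) and Tmem38b (r = 0.993). Closest to Trib2 were Got1, the cytosolic aspartate aminotransferase (r = 0.998), with means of 82.6, 52 and 36.7 CPM, and Avil, an actin-binding villin relative (r = 0.997), with 13.3, 2.56 and 0.458 CPM.

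Markers of other blood cells moved in the same libraries. The 8 mature neutrophil markers summed to 5.38 to 7.06 CPM at day 0, 12 to 15.7 CPM with vehicle and 3492 to 3808 CPM with the drugs, nearly all of it Mmp8, while Camp had 0 counts and Ltf and Ngp at most 2. Mmp9 averaged 0.203, 0.121 and 5.19 CPM and was called higher with the drugs than with vehicle (adjusted p = 8.34e-07). S100a8 (adjusted p = 0.378) and Cxcr2 (0.666) did not pass in that comparison, and S100a9 had at most 6 counts. The 6 macrophage markers summed to 29.7 to 33.6, 20.9 to 25.1 and 77.6 to 78.3 CPM, with C1qa and C1qc at 0 and C1qb at most 1 count. Most of that sum is Adgre1, which averaged 26.9, 19.1 and 67.2 CPM. Cd68 averaged 4.07, 3.32 and 10 CPM, and Mrc1 0.685, 0.565 and 0.731 CPM. The 5 mast cell and basophil markers, led by Cpa3, summed to 903.1 to 1089, 479.6 to 496.1 and 1126 to 1212 CPM, and Fcer1a and Tpsb2 were at 0. The sum is almost all Cpa3, which was lowest with vehicle as Satb1 and Cd93 were. Mcpt8 averaged 30.7, 25.6 and 20.8 CPM and was called lower with the drugs than with vehicle (adjusted p = 0.0469), and Ms4a2 averaged 1.29, 1.79 and 1.07 CPM. The 5 megakaryocyte markers summed to 32.7 to 43.8, 15.5 to 20.3 and 13.6 to 17.7 CPM, with Gp1bb at 0. Most of that sum is Itga2b, which averaged 32.6, 13.6 and 14.7 CPM, lower in both 3-day groups as Hlf and Trib2 were. Pf4 averaged 1.79, 0.778 and 0.394 CPM. Gp9 averaged 3.73, 3.47 and 0.579 CPM and was called lower with the drugs than with vehicle (adjusted p = 7.95e-05). Of 5 T cell markers, Cd3e, Cd3g and Cd4 were at 0, and 4 erythroid markers summed to at most 1.26 CPM in any library. The part of these cells in the changes of the 10 genes was not tested.

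In the deposited table, on mm10, Satb1 lies on chromosome 17 from 51736187 to 51833290, Mef2c on chromosome 13 from 83504034 to 83667079, Sox4 on chromosome 13 from 28950730 to 28953682, and Trib2 on chromosome 12 from 15791727 to 15816785. Cd93 lies on chromosome 2 from 148436651 to 148443535, Lmo2 on chromosome 2 from 103957995 to 103981878, Erg on chromosome 16 from 95360204 to 95530365, and Hlf on chromosome 11 from 90336535 to 90390917. Cd34 lies on chromosome 1 from 194938821 to 194961292 and Myb on chromosome 10 from 21124930 to 21160984. Sox4 has a single exon there, and Satb1 has 14 distinct exons there and 5 RefSeq start sites, so its count does not say which transcript changed. Apart from Cd34, none of the 10 shares exon bases with another gene of the table.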

How the data were processed

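The deposited table holds raw read counts per gene for the 6 libraries. Per the labels it is a featurecount table, and the submitters' processing notes name STAR 2.7.0f, deepTools 3.0.2 and mm10. The sources used here do not give the annotation release, strand setting or handling of reads with several matches. The table's Length column, another value the authors deposited, equals the exon union in bases and was used for RPKM. Groups came from sample titles and columns from sample descriptions.

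Genes were filtered with filterByExpr, which left 11283 of 23337, scaled with TMM and fitted over the 3 groups together (edgeR 4.0.16, R 4.3.3; 3 residual degrees of freedom, common biological coefficient of variation 0.0592). Tests were edgeR quasi-likelihood F tests, two-sided, adjusted by Benjamini-Hochberg over all tested genes, with a threshold of 0.05. SEs and 95% intervals were derived from the F statistic. Simulated counts for drugs against vehicle over 11283 genes were drawn with the common coefficient of variation for every gene and group. They gave back 79.1% of planted 1.5-fold changes and 97% of planted 2-fold ones, with 10 false calls among 11083 unchanged genes. In the data the raw counts of replicates differed by unlike amounts between the groups, so these rates hold for that setting and are not error rates of these data. Names were given to all 10 members and, from each related list, to at most 4 called genes per comparison (2 smallest p, 2 largest changes); other names were chosen after their values were seen. The similar genes were sought among those averaging at least 10 CPM in a group. The members and lists were chosen with earlier results of these data known. Alternatives were DESeq2 1.42.0, library totals, upper-quartile scaling, no filter, a fit of only the 2 groups compared, removal of Rn45s, a replicate block, a 1.5-fold minimum change and leaving out each library. A fit of only vehicle and day 0 with crossed replicate numbers was added after seeing the data.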

Additional observations from a re-analysis of the deposited data

How the results depend on the processing

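Of the recalculated changes of the 10 genes, 380 kept direction and side of the threshold or were uncalled on both sides, 46 lost a call, 4 gained one and 0 reversed a call. That tally includes the fit with crossed replicate numbers described below, which was chosen after seeing the data. In that fit Cd93 and Myb gained a call in vehicle against day 0. Satb1, Mef2c and Cd93 in drugs against vehicle were called under all 14 alternatives, and Erg and Trib2 under all but the 1.5-fold minimum. Lmo2 was called in 5 of 14 and Sox4 in 10 of 14. Under the 1.5-fold minimum the members called were 3 in drugs against vehicle, 0 in vehicle against day 0 and 3 in drugs against day 0, of 714, 56 and 886 genes. In vehicle against day 0, members called fell from 4 to 1 with only the 2 groups, and genes called from 873 to 527 there, 491 with DESeq2, and rose to 1957 with library totals and 1664 without a filter. Leaving out 1 library gave 5 to 7 members in drugs against vehicle, 1 to 4 in vehicle against day 0 and 6 to 7 in drugs against day 0, and 1833 to 4191, 351 to 2012 and 2872 to 5142 genes. The gene counts moved by over 1.5 times without drug replicate 1 or 2 in both drug comparisons (1833 and 2056 against vehicle, 2872 and 3279 against day 0). In vehicle against day 0 they did so without day 0 replicate 1 (359) or 2 (2012), vehicle replicate 1 (351) or drug replicate 1 (530) or 2 (535).

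Replicate numbers carry no stated pairing, and deviations with the same number correlated at 0.0807 (vehicle and drugs), -0.199 (vehicle and day 0) and -0.0604 (drugs and day 0). With a replicate block, 6, 1 and 7 members and 2958, 483 and 4327 genes were called in the 3 comparisons. The calls lost there were Lmo2 in drugs against vehicle (adjusted p = 0.0795) and Lmo2 (0.0553), Satb1 (0.0654) and Hlf (0.0755) in vehicle against day 0. A fit of only vehicle and day 0 with crossed numbers was chosen after seeing the data. It changed both the samples and the block and called 6 members and 3125 genes. Of the 6 members, Myb was called higher and the other 5 lower. Depth limits Mef2c most, with 21 counts in its lowest library.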

Other observations

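Several of the 10 genes, Mef2c, Satb1, Sox4 and Myb among them, also act in early lymphoid development, so a list of 9 lymphoid progenitor and B cell genes was looked at beside them. Of the 5 with enough counts, 2 rose and 2 fell with the drugs against vehicle, beside 18.1% higher and 13.8% lower of all tested genes. Rag1, a subunit of the recombinase that cuts antigen receptor genes, went up from a mean of 2.54 CPM to 6.53 CPM (1.34 ± 0.229 SE in log2, adjusted p = 0.000697), and Cd79a, a B cell receptor chain, rose from 1.98 to 3.58 CPM (0.84 ± 0.25, adjusted p = 0.0212). Ebf1, the factor that commits cells to the B lineage, fell from 71.8 to 36.7 CPM (-0.97 ± 0.106, adjusted p = 1.64e-05), and Igll1, the surrogate light chain gene, fell from 19.1 to 5.52 CPM (-1.78 ± 0.15, adjusted p = 1.56e-06). Dntt, the terminal transferase of lymphoid progenitors, had 1.23 CPM with vehicle and 1.41 CPM with the drugs and did not pass (adjusted p = 0.707). Pax5, a B cell factor, had at most 3 counts in any library.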
